A study of Homo sapiens with 15 samples.

Results

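The 10 genes described here encode proteins that protect cells from drugs and reactive aldehydes, and they were followed through the 5 conditions of an RNA sequencing experiment on EGFR-mutant lung cancer cells. They are the efflux transporter genes ABCB1, ABCG2, ABCC1, ABCC2, ABCC3 and ABCC4 and the aldehyde dehydrogenase genes ALDH1A1, ALDH1A3, ALDH3A1 and ALDH2. The 10 genes were chosen by symbol from the 19612 in the table, and all 10 were found. H1975 is an established human lung adenocarcinoma line that carries the EGFR mutations T790M and L858R, and H1975–OR is its osimertinib-resistant subline, labelled with the same EGFR status. Osimertinib inhibits mutant EGFR, and 1,25(OH)2D3 is the hormonally active form of vitamin D3. Samples 1a to 1c are vehicle-treated H1975. Samples 2a to 2c are H1975–OR with vehicle, 3a to 3c H1975–OR with 100 nM 1,25(OH)2D3, 4a to 4c H1975–OR with 500 nM osimertinib, and 5a to 5c H1975–OR with both agents at those doses. The cells were dosed at 0, 48 and 92 h over a treatment of 96 h in medium with charcoal-stripped serum, and each group has 3 libraries. Separate passages are stated for cells given vehicle or 1,25(OH)2D3 alone, and not for the groups given osimertinib. H1975–OR cells were made and maintained in 500 nM osimertinib, so those given vehicle or 1,25(OH)2D3 alone had been taken off the drug for the treatment period. Whether the subline is 1 clone is not stated in the sources used here, and no parental cells given either agent were analysed here.

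ABC transporters use ATP to pump compounds out of the cell. ABCB1 (P-glycoprotein) and ABCG2 (breast cancer resistance protein) carry many drugs, among them several kinase inhibitors. The ABCC proteins, also called multidrug resistance-associated proteins, export organic anions such as glutathione, glucuronide and sulphate conjugates, and ABCC4 also exports cyclic nucleotides and prostaglandins. Aldehyde dehydrogenases oxidise aldehydes to acids. ALDH1A1 and ALDH1A3 make retinoic acid from retinal and give much of the activity that marks stem-like cells in enzyme assays, ALDH3A1 acts on aromatic and lipid-derived aldehydes, and mitochondrial ALDH2 clears acetaldehyde.

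The values are Kallisto estimates of the number of reads per gene. They summed to between 4378030 and 6140120 per library, with a median of 4974785. Levels are given as CPM, that is, counts scaled to a common library total, after TMM scaling of the 15 libraries together, and a floor of 3 counts lay between 0.468 and 0.709 CPM. These floors cover counting error only, and the p-values measure the spread between the libraries of a group. Those libraries are stated to be separate passages only in the groups without osimertinib. In fits with the replicate letter as a block, the p-values measure the spread that remains after the letter is taken into account. Sample 3a was left out of the fits. Mitochondrial transcripts made up 1.54% of its counts and at most 1.05% in the other 14 libraries, and of 12782 genes it lay above all other libraries for 15.1% and below them for 14.2%. The epithelial keratin gene KRT18 stood between 1770 and 2930 CPM in the 15 libraries and the lung marker NKX2-1 between 31.9 and 99.3 CPM. The keratin genes KRT7 and KRT8 were at no less than 454 and 303 CPM. The lung markers NAPSA and SFTPB, however, reached no more than 2.24 and 1.90 CPM. CD3E, a T cell marker, had no count in any library, while PTPRC of leukocytes reached 2.13 CPM. PECAM1 of endothelium was at 4.05 to 4.20 CPM in H1975, and VWF of endothelium and ALB of hepatocytes reached 0.817 and 0.558 CPM. EPCAM, an epithelial adhesion gene, was at 74.5 to 206 CPM in H1975 and at no more than 12.8 CPM in H1975–OR, and its part in the differences between the lines was not tested. In such bulk RNA, fewer cells that express a gene and less of its RNA per cell cannot be told apart.

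The following 3 upstream stretches are shown, because they precede ABCG2 and ALDH1A3, which were lower in the resistant subline, and ABCC4, whose values with each treatment were below those with vehicle. They come from the RefSeq promoter windows of GRCh38.p14 (250 bases before an annotated start), which matched 6 of the 10 genes and not ABCC1, ABCC3, ALDH3A1 or ALDH2. Bases that a GENCODE exon covers were cut off, so the ABCG2, ABCC4 and ALDH1A3 stretches end 116, 25 and 19 bases before the annotated start used. Of 5 annotated ABCG2 starts, the one nearest the canonical transcript whose window kept at least 100 bases was used, and which start these cells use cannot be read from gene counts. The ABCG2 stretch is chr4:88159025-88159159 (minus strand), the ABCC4 stretch chr13:95301476-95301701 (minus strand) and the ALDH1A3 stretch chr15:100879581-100879812 (plus strand), each written 5′ to 3′ in the gene's direction. Capitals mark the motifs found.
ABCG2: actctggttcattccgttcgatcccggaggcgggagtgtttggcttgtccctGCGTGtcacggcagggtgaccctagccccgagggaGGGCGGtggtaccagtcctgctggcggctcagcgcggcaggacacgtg
ABCC4: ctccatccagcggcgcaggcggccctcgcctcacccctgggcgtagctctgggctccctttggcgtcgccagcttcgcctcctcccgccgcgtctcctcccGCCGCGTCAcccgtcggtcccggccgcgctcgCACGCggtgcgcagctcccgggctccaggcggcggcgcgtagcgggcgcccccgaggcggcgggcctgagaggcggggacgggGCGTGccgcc
ALDH1A3: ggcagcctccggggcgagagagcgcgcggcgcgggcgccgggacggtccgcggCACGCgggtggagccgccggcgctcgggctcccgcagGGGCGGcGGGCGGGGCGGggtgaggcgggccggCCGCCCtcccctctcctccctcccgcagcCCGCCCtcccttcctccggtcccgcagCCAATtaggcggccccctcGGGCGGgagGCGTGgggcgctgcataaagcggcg

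Both strands were searched for 7 motifs: the GC box GGGCGG, the CCAAT box, the TATA box TATAAA, the xenobiotic response element core GCGTG, the antioxidant response element core TGACNNNGC, the E2 box CACCTG, and the direct-repeat-3 vitamin D response element by its name. The ABCG2 stretch of 135 bases held 1 GC box and 1 xenobiotic core, which 23.1% and 17.7% of 34943 windows held in their first 135 bases. The ABCC4 stretch of 226 bases held 2 xenobiotic cores (29.6% of windows) and 1 antioxidant core (9.76%). The ALDH1A3 stretch of 232 bases held 6 GC boxes (40.2% of windows held at least 1), 2 of which overlap each other by 1 base, 1 CCAAT box (30.9%) and 2 xenobiotic cores (30.2%). No motif overlapped a different one. The GC content was 66.7%, 80.1% and 82.3%, against medians of 56.3%, 57.5% and 57.8% over all windows at the same lengths. A match of letters describes the window and is not a binding site.

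The resistant subline carried less ABCG2 and less ALDH1A3 mRNA than its parent, and no other tested gene of the 10 differed between them past the threshold. Of the 10 genes, 7 had enough counts to be tested. Among these, 2 had an adjusted p under 0.05 by the quasi-likelihood test of edgeR, after Benjamini-Hochberg (BH) adjustment over all genes, both lower in H1975–OR, where 20.1% of the 12513 genes tested passed in either direction (1237 higher and 1284 lower). The median log2 fold change of the 7 genes was −0.87, and that of all tested genes was 0.01.

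ABCG2 lies on chromosome 4 of GRCh38 from 88090269 to 88158639 (minus strand) and its canonical transcript has 16 exons. Its level was 71.5, 46.0 and 31.8 CPM in the H1975 libraries and 18.4, 17.0 and 21.5 CPM in vehicle-treated H1975–OR. Every resistant library lay below every parental one, and the parental libraries were the more spread (49.8 ± 20.1 against 19.0 ± 2.28 CPM, SD, n = 3 each). The log2 fold change, with its standard error (SE), was −1.39 (SE 0.29, BH-adjusted p = 0.0120 by edgeR), which is 0.382 times the parental level, and over 16 alternatives the adjusted p lay between 0.000244 and 0.0497. ALDH1A3, on chromosome 15 from 100879831 to 100916626 (plus strand, 13 exons), stood at 53.1, 43.8 and 49.2 CPM in H1975 and at 10.0, 7.48 and 13.5 CPM in vehicle-treated H1975–OR. The groups were far apart, with means of 48.7 ± 4.67 and 10.3 ± 3.05 CPM (SD, n = 3 each). Its log2 fold change was −2.23 (SE 0.25, BH-adjusted p = 0.000956 by edgeR), or 0.214 times the parental level, and its adjusted p lay between 5.4e-13 and 0.0051 over the alternatives. ALDH1A3 had the widest range of the 5 group means among the 7 genes, 2.39 on the log2(CPM + 2) scale, followed by ABCG2 with 2.12, while the other 5 spanned 0.40 to 0.74.

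**Figure D1:**
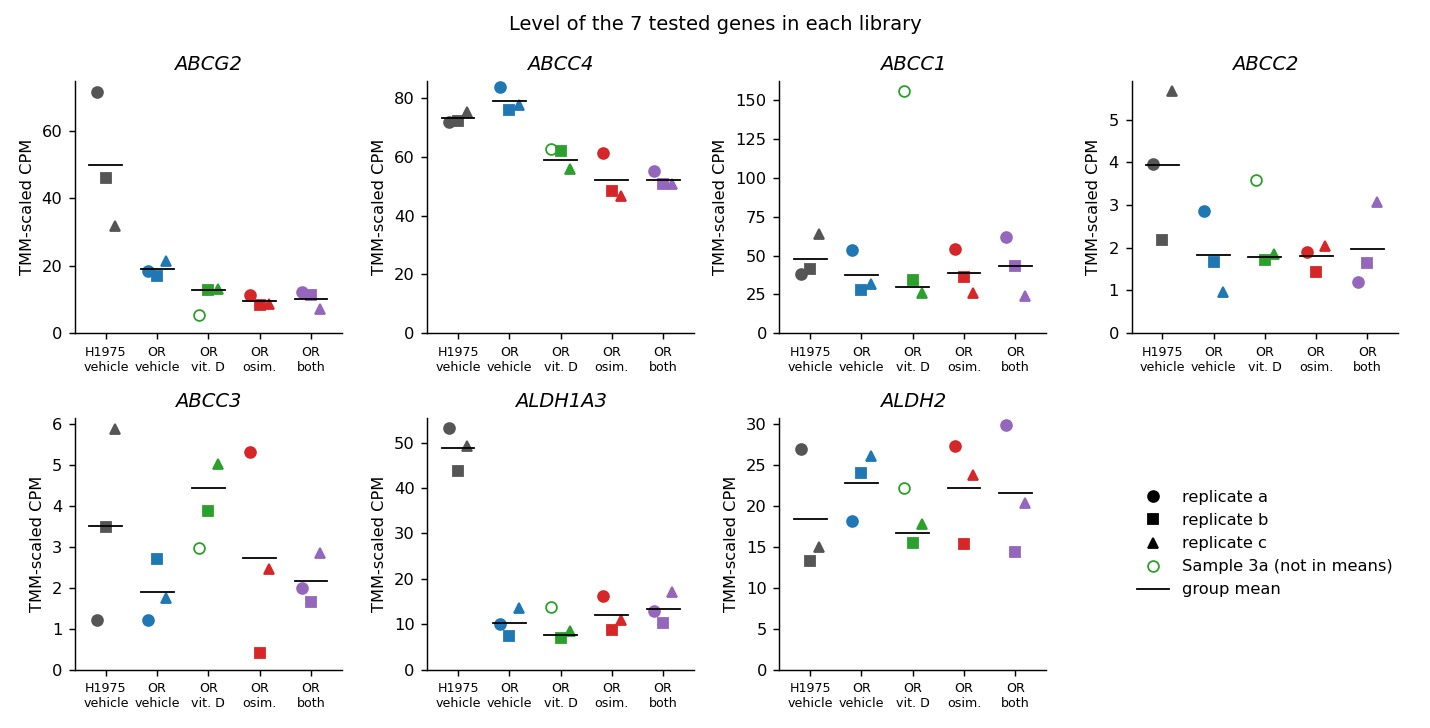
TMM-scaled CPM (vertical axes, from 0) of the 7 tested genes in each of the 15 libraries, grouped by the 5 conditions on the horizontal axes, where OR is H1975–OR, vit. D is 1,25(OH)2D3 and osim. is osimertinib. Lines are group means without Sample 3a (open circle). ALDH1A3 was at 43.8 to 53.1 CPM in H1975 and at no more than 17.0 CPM in any H1975–OR library.

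No other transporter passed the test between the cell lines. ABCC4, on chromosome 13 from 95019835 to 95301451 (minus strand, 31 exons), was at 71.9, 72.3 and 75.4 CPM in H1975 and at 83.9, 75.8 and 77.6 CPM in vehicle-treated H1975–OR. These values stand above the parental ones in all 3 resistant libraries, but the log2 fold change was 0.12 (SE 0.11, BH-adjusted p = 0.488 by edgeR). ABCC1, on chromosome 16 from 15949616 to 16143053 (plus strand, 31 exons), was at 37.8, 41.5 and 63.6 CPM against 53.3, 28.0 and 31.9 CPM. The groups overlapped, and the log2 fold change was −0.32 (SE 0.29, BH-adjusted p = 0.476). ABCC2, the canalicular anion pump of liver, averaged 3.94 CPM in H1975 and 1.83 CPM in H1975–OR (log2 fold change −1.09, SE 0.60, BH-adjusted p = 0.235). ABCC3, a basolateral exporter of bile salts and glucuronides, averaged 3.52 and 1.89 CPM (log2 fold change −0.87, SE 0.65, BH-adjusted p = 0.378). Both genes stood at a few CPM in each group, close to the floor, and their SEs were the largest of the 7 genes. ALDH2, on chromosome 12 from 111766933 to 111817532 (plus strand, 13 exons), was at 27.0, 13.3 and 14.99 CPM in H1975 and at 18.2, 24.1 and 26.1 CPM in H1975–OR. The ranges overlapped (log2 fold change 0.31, SE 0.30, BH-adjusted p = 0.515).

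ABCB1, ALDH1A1 and ALDH3A1 were at or near 0 counts in nearly every library. ABCB1, on chromosome 7 from 87503017 to 87600884, had 0 counts in each H1975 library. In H1975–OR it had 3, 0 and 0 counts with vehicle, 6, 1 and 0 with 1,25(OH)2D3 (the 6 in Sample 3a), 0 in each osimertinib library, and 5, 0 and 0 with both agents. All counts but 1 came from the libraries with the letter a. ALDH1A1, on chromosome 9 from 72900671 to 72953053, had between 0 and 2 counts in every library, in all 5 groups. ALDH3A1, on chromosome 17 from 19737989 to 19748298, reached 11 counts in Sample 3b and between 0 and 3 in each of the other 14 libraries. With so few counts no difference between groups was detectable at this depth, and a library without a count could still hold up to 0.468 to 0.709 CPM, counting error only.

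Per kilobase of the GENCODE canonical transcript, which allows genes to be set side by side, ALDH1A3 led in H1975 with 14.1 CPM per kilobase. ABCC4 (12.5) and ABCG2 (11.8) came next, and the spread of ABCG2 (SD 4.79) covers the gaps to both and to ABCC1, which followed with 7.32. Then came ALDH2 with 1.93, ABCC2 with 0.679 and ABCC3 with 0.618 CPM per kilobase. In vehicle-treated H1975–OR the order was ABCC4 (13.5), ABCC1 (5.80), ABCG2 (4.51), ALDH1A3 (2.98), ALDH2 (2.38), ABCC3 (0.332) and ABCC2 (0.315). ABCC4 thus stood alone at the top in the resistant subline, with an SD of 0.730, while ABCC1 and ABCG2 differed by less than the SD of ABCC1 (2.09). ALDH1A3 and ALDH2 were also within 1 SD of ALDH1A3 (0.878) of each other, as were ABCC2 and ABCC3. These are levels per length of 1 transcript, and other isoforms would change them.

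**Figure D2:**
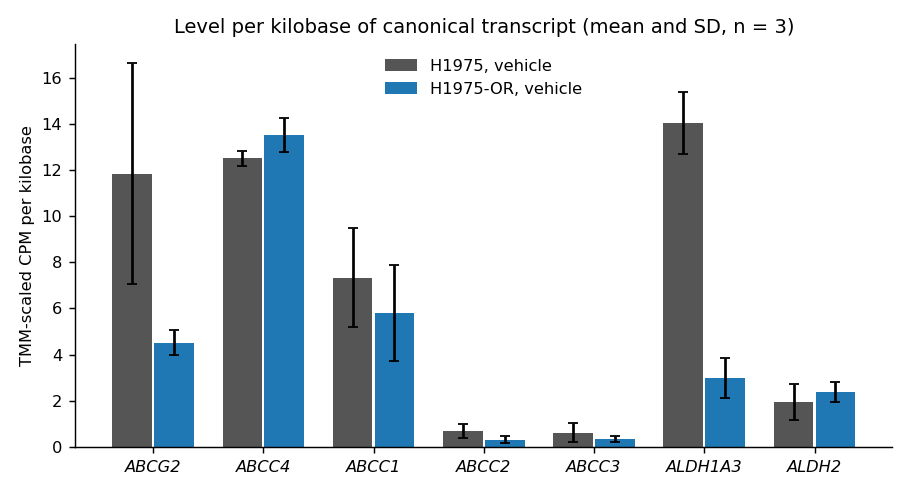
Mean TMM-scaled CPM per kilobase of canonical transcript (vertical axis, from 0) for the 7 tested genes in vehicle-treated H1975 and H1975–OR, with SD bars over 3 libraries. ALDH1A3 was at 14.1 in H1975 and at 2.98 in H1975–OR, while ABCC4 was at 12.5 and 13.5.

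In H1975–OR cells given osimertinib, ABCC4 and ABCG2 had the most negative log2 fold changes of the 7 genes against vehicle, but neither passed the threshold over all genes tested. ABCC4 was at 83.9, 75.8 and 77.6 CPM with vehicle and at 61.3, 48.4 and 46.6 CPM with osimertinib. Every osimertinib library lay below every vehicle library. The log2 fold change was −0.60 (SE 0.14) with an adjusted p of 0.274 by edgeR (unadjusted 0.00138). With the replicate letter as a block, ABCC4 had a log2 fold change of −0.60 (SE 0.10, BH-adjusted p = 0.058 by edgeR). With DESeq2 its adjusted p was 0.0226, and over all 20 alternatives it lay between 0.0226 and 0.895. ABCG2 was at 18.4, 17.0 and 21.5 CPM with vehicle and at 11.2, 8.42 and 8.62 CPM with osimertinib, again without overlap. Its log2 fold change was −1.002 (SE 0.27, BH-adjusted p = 0.347, unadjusted 0.00347), and with the block −1.02 (SE 0.25, BH-adjusted p = 0.141 by edgeR). Of the 7 genes 0 passed by edgeR, where 0.048% of 12503 genes did (4 higher and 2 lower), 2 had an unadjusted p under 0.05, and 1 (ABCC4) passed by DESeq2, where 0.955% of the genes did. The median log2 fold change was −0.02 for the 7 genes and 0.01 for all genes tested. ABCC1, ABCC2 and ALDH2 had log2 fold changes of 0.04, −0.02 and −0.03, with SEs of 0.39, 0.59 and 0.31. With the block these were 0.02, −0.02 and −0.09, with SEs of 0.18, 0.63 and 0.27. DUSP6, a gene downstream of the kinase pathway that EGFR drives, had a log2 fold change of −1.48 (SE 0.61, BH-adjusted p = 0.607 by edgeR), so it did not pass the test either. SPRY4, ETV4 and ETV5, also downstream of that pathway, had log2 fold changes of −1.48 (SE 0.82), −0.30 (SE 0.46) and −0.13 (SE 0.44). None of them passed by edgeR.

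With both agents ABCC4 and ABCG2 again had values below vehicle, and ABCC4 passed in some fits. ABCC4 stood at 55.1, 50.9 and 50.6 CPM (52.2 ± 2.54 CPM, SD, n = 3), below every vehicle library. Its log2 fold change against vehicle was −0.60 (SE 0.14, BH-adjusted p = 0.112 by edgeR, unadjusted 0.00130). Libraries with the same letter deviated together between the vehicle group and the group with both agents, and with the letter as a replicate block ABCC4 passed, with a log2 fold change of −0.60 (SE 0.10, BH-adjusted p = 0.0208 by edgeR, where 3.69% of genes passed). DESeq2 gave an adjusted p of 0.00965 (2.97% of genes passed), and the range over 20 alternatives was 0.00965 to 0.304. With only the libraries of these groups in the blocked fit, a setting chosen after seeing the data, no gene of the 7 passed. Only 9 of all genes tested passed in that fit. ABCG2 was at 12.2, 11.3 and 7.09 CPM, also below every vehicle library, with a log2 fold change of −0.89 (SE 0.27, BH-adjusted p = 0.214, and 0.0875 with the block). Of the 7 genes 0 passed by edgeR without the block, where 0.496% of genes did (48 higher and 14 lower), and 2 had an unadjusted p under 0.05. ALDH1A3, at 12.98, 10.4 and 17.0 CPM, had a log2 fold change of 0.37 (SE 0.34, BH-adjusted p = 0.714).

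**Figure D3:**
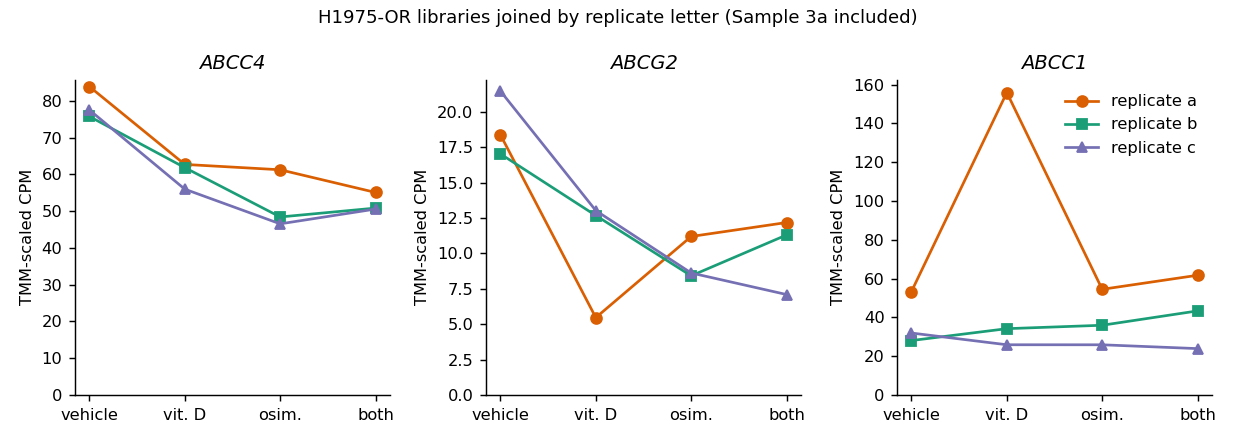
TMM-scaled CPM (vertical axes, from 0) of ABCC4, ABCG2 and ABCC1 in the 12 H1975–OR libraries, with the 4 treatments on the horizontal axes and libraries of 1 replicate letter joined by a line. For ABCC4 all 3 letters had their highest value with vehicle, and for ABCC1 the 4 libraries with letter a, from 53.3 to 155.9 CPM, lay above all with letters b and c.

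With 1,25(OH)2D3 alone, ABCC4 was at 61.9 and 56.0 CPM in Samples 3b and 3c, and at 62.7 CPM in Sample 3a. All 3 lay below the vehicle libraries. The log2 fold change without Sample 3a was −0.42 (SE 0.13, BH-adjusted p = 0.479 by edgeR, unadjusted 0.00924). Without Sample 3a the treated group has no library with letter a, while the vehicle group keeps its own. With the replicate letter as a block, the log2 fold change of ABCC4 was −0.40 (SE 0.14, BH-adjusted p = 0.78 by edgeR, unadjusted 0.0273). ABCG2 was at 12.7 and 13.02 CPM (log2 fold change −0.56, SE 0.34, BH-adjusted p = 0.791), and at 5.46 CPM in Sample 3a, the lowest of all 15 libraries. With Sample 3a kept in, the log2 fold change of ABCG2 was −0.86 (BH-adjusted p = 0.647). With Sample 3a left out and the block, it was −0.42 (SE 0.33, BH-adjusted p = 0.963 by edgeR). ABCC3 was at 3.87 and 5.02 CPM, against 1.23, 2.70 and 1.74 CPM with vehicle, which gave the largest positive value of the 7 genes (log2 fold change 1.23, SE 0.70, BH-adjusted p = 0.774). ALDH1A3 and ALDH2 had log2 fold changes of −0.42 (SE 0.29) and −0.45 (SE 0.34). Of the 7 genes 0 passed by edgeR or DESeq2 and 1 (ABCC4) had an unadjusted p under 0.05, while 0.152% of all 12513 genes tested passed by edgeR, each of the 19 higher. The median log2 fold change was −0.42 for the 7 genes and −0.01 for all genes. CYP24A1, the enzyme that degrades 1,25(OH)2D3 and a classical target of its receptor, rose by 7.71 on the log2 scale (BH-adjusted p = 0.000183 by edgeR).

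The vehicle libraries enter all 3 comparisons above, so their values for a gene are not independent. Adding 1,25(OH)2D3 to osimertinib gave the 7 genes log2 fold changes from −0.35 (ABCC3) to 0.16 (ALDH1A3). ABCC4 differed by −0.01 (SE 0.14) and ABCG2 by 0.11 (SE 0.27). By edgeR and by DESeq2 0 of the 7 passed and 0 had an unadjusted p under 0.05, where 0.096% of genes passed by edgeR. Against 1,25(OH)2D3 alone, cells with both agents had a log2 fold change of 0.79 for ALDH1A3 (SE 0.39, BH-adjusted p = 0.463) and of −1.04 for ABCC3 (SE 0.80, BH-adjusted p = 0.659). Here too 0 of the 7 passed by either tool and 0 had an unadjusted p under 0.05, with a background of 0.256%. The test of whether 1,25(OH)2D3 acted differently with and without osimertinib gave 0 of 7 by both tools, 0 at an unadjusted p under 0.05, and 0% of all 12503 genes by edgeR (330 at an unadjusted p under 0.05). For ABCC4 this difference of effects was 0.41 (SE 0.21). For ABCG2 it was 0.67 (SE 0.40). Neither passed, with an unadjusted p of 0.0713 and 0.125 by edgeR.

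**Figure D4:**
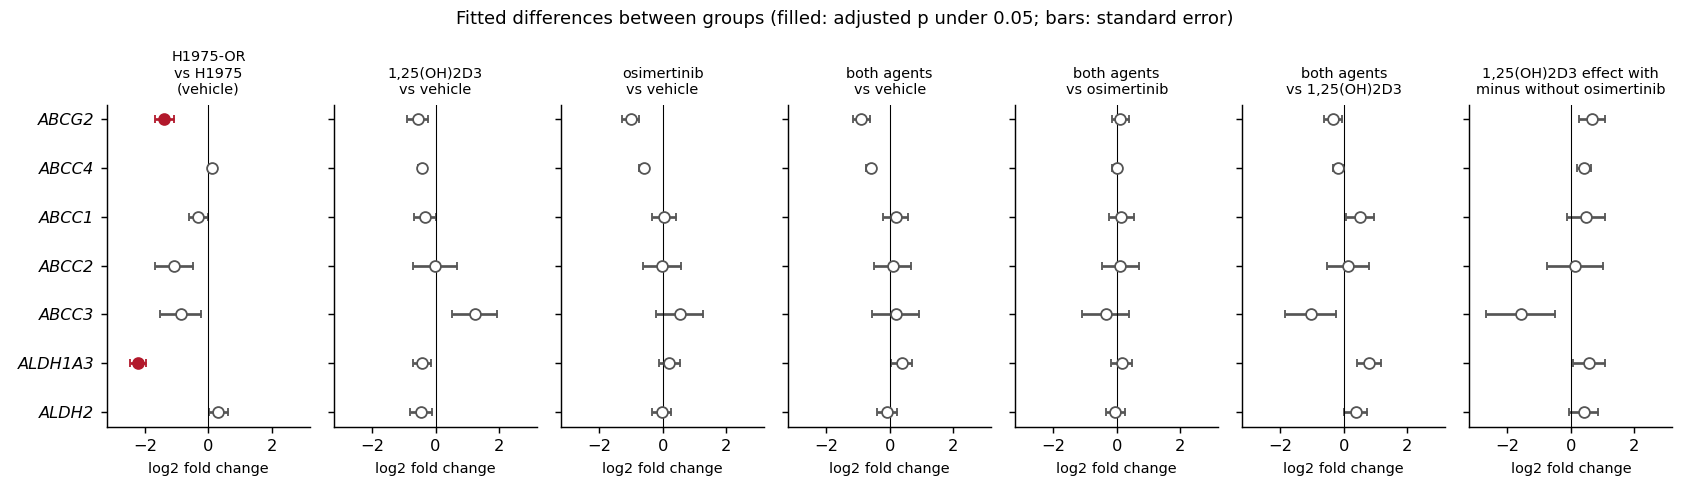
Log2 fold change (horizontal axes) with its standard error for the 7 tested genes in the 7 comparisons, from edgeR without a replicate block. The 2 filled points, ABCG2 at −1.39 and ALDH1A3 at −2.23 in H1975–OR against H1975, are the ones with an adjusted p under 0.05.

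Over the 5 conditions ABCG2 had group means of 49.8, 19.0, 12.8, 10.2 and 9.41 CPM for H1975, vehicle, 1,25(OH)2D3, both agents and osimertinib. The SDs were 20.1, 2.28, 0.248 (n = 2), 2.72 and 1.55 CPM. Among the last 3, neighbours differed by less than the larger of their SDs, and the H1975 and vehicle groups, the first pair, differed past the threshold. ABCC4 ran 79.1 (vehicle), 73.2 (H1975), 58.9 (1,25(OH)2D3), 52.2 (both) and 52.1 CPM (osimertinib), with SDs from 1.89 to 8.01 CPM and the last pair inseparable. ALDH1A3 ran 48.7 (H1975), 13.5 (both), 11.9 (osimertinib), 10.3 (vehicle) and 7.72 CPM (1,25(OH)2D3), where neighbours among the H1975–OR groups were within the larger of their SDs. ALDH2 means lay between 16.7 and 22.8 CPM, and ABCC1 means between 30.0 and 47.6 CPM, with SDs as large as 7.87 and 18.9 CPM.

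In H1975–OR, ABCC1 was highest in the libraries with letter a. Its 4 H1975–OR libraries with letter a held 53.3, 155.9, 54.5 and 61.7 CPM, those with letter b 28.0 to 43.3 CPM, and those with letter c 23.9 to 31.9 CPM. The libraries with letter a did not overlap the others, while in H1975 the letter a library was the lowest. The highest value was that of Sample 3a, above all other 14 libraries. With Sample 3a left out, the log2 fold change of ABCC1 with 1,25(OH)2D3 was −0.33 (SE 0.34, BH-adjusted p = 0.899 by edgeR). That comparison has a letter a library with vehicle and none with 1,25(OH)2D3. With the replicate letter as a block, the value was −0.21 (SE 0.39, BH-adjusted p = 0.993 by edgeR). With Sample 3a kept in and no block, the value turned to 0.97 (SE 0.62, BH-adjusted p = 0.725), and without vehicle Sample 2a it was 0.006. Mitochondrial transcripts took 0.746% to 1.54% of the counts of the H1975–OR libraries with letter a and 0.424% to 0.774% of those with letters b and c, and their part in the ABCC1 values was not tested.

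Relatives and neighbours of the 10 genes in their pathways were read from 5 lists written from general knowledge. In H1975–OR against H1975, 17 of the 51 tested list genes had an adjusted p under 0.05 by edgeR, beside 20.1% of all genes tested. Of 17 other ABC transporters 11 were tested, and 1 rose while 0 fell. It was ABCA5, a lipid transporter, at 2.03 ± 1.39 CPM in H1975 and 13.7 ± 1.79 CPM in H1975–OR (SD, n = 3 each), with a log2 fold change of 2.73 (SE 0.45, BH-adjusted p = 0.00475). Of 11 glutathione transferases, whose conjugates the ABCC proteins export, 1 rose and 1 fell. GSTM3 had a log2 fold change of 1.38 (SE 0.23, BH-adjusted p = 0.00490), and GSTA1 had 12, 13 and 3 counts in H1975 and 0 in each vehicle-treated H1975–OR library (BH-adjusted p = 0.0422). The list medians were 0.07 and 0.06, with 0.01 over all genes.

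Among the other aldehyde dehydrogenases more genes were higher than lower. Of 15 listed, 12 were tested, 4 rose and 2 fell, and the median log2 fold change was 0.39. ALDH5A1, which oxidises succinate semialdehyde in the breakdown of GABA, rose from 14.6 ± 1.72 to 40.4 ± 15.9 CPM (SD, n = 3 each), which was 1.47 on the log2 scale (SE 0.30, BH-adjusted p = 0.0113 by edgeR). ALDH3A2, a fatty aldehyde dehydrogenase, rose by 1.16 on the log2 scale, ALDH4A1 of proline breakdown by 0.67, and ALDH6A1 of valine breakdown by 0.56. The mitochondrial ALDH1B1 fell by 0.51 on that scale (BH-adjusted p = 0.0423). ALDH3B2 had 32, 58 and 66 counts in H1975 and 0, 0 and 2 in vehicle-treated H1975–OR (BH-adjusted p = 0.00570).

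Retinoic acid is the product of ALDH1A3, and genes of its pathway moved in both directions between the lines. Of 14 listed genes 11 were tested, 2 rose and 4 fell, with a median log2 fold change of −0.05. RARB, a retinoic acid receptor and a known target of it, had 4, 3 and 2 counts in H1975 and 117, 250 and 236 in vehicle-treated H1975–OR (BH-adjusted p = 0.000151 by edgeR). RDH10, which makes the retinal that ALDH1A enzymes use, rose by 1.36 on the log2 scale (SE 0.24, BH-adjusted p = 0.00650). DHRS3, which reduces retinal back to retinol, fell by 1.47 on that scale (SE 0.34, BH-adjusted p = 0.0178). CYP26B1, which degrades retinoic acid, was at 5.62 ± 1.51 and 0.801 ± 0.520 CPM (SD, n = 3 each), and its log2 fold change was −2.76 (SE 0.63, BH-adjusted p = 0.0169). The retinol dehydrogenase DHRS9 had a log2 fold change of −2.81 (SE 0.58, BH-adjusted p = 0.0118), and the receptor gene RARG one of −1.84 (SE 0.18, BH-adjusted p = 0.000515). In vehicle-treated H1975–OR, CYP26B1 had 1 to 6 counts per library and DHRS9 2 to 9, so the sizes of these 2 changes are uncertain. Of 8 listed regulators of xenobiotic genes 6 were tested, with a median of 0.19. AHR, the receptor that senses aromatic compounds, rose by 0.61 on the log2 scale (SE 0.10, BH-adjusted p = 0.00468) and HIF1A, of the hypoxia response, fell by 0.44 (SE 0.13, BH-adjusted p = 0.0481). VDR, the receptor of 1,25(OH)2D3 and named after its values were seen, was at 29.1 ± 3.43 and 30.5 ± 3.74 CPM (SD, n = 3 each), with a log2 fold change of 0.07 (SE 0.17).

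**Figure D5:**
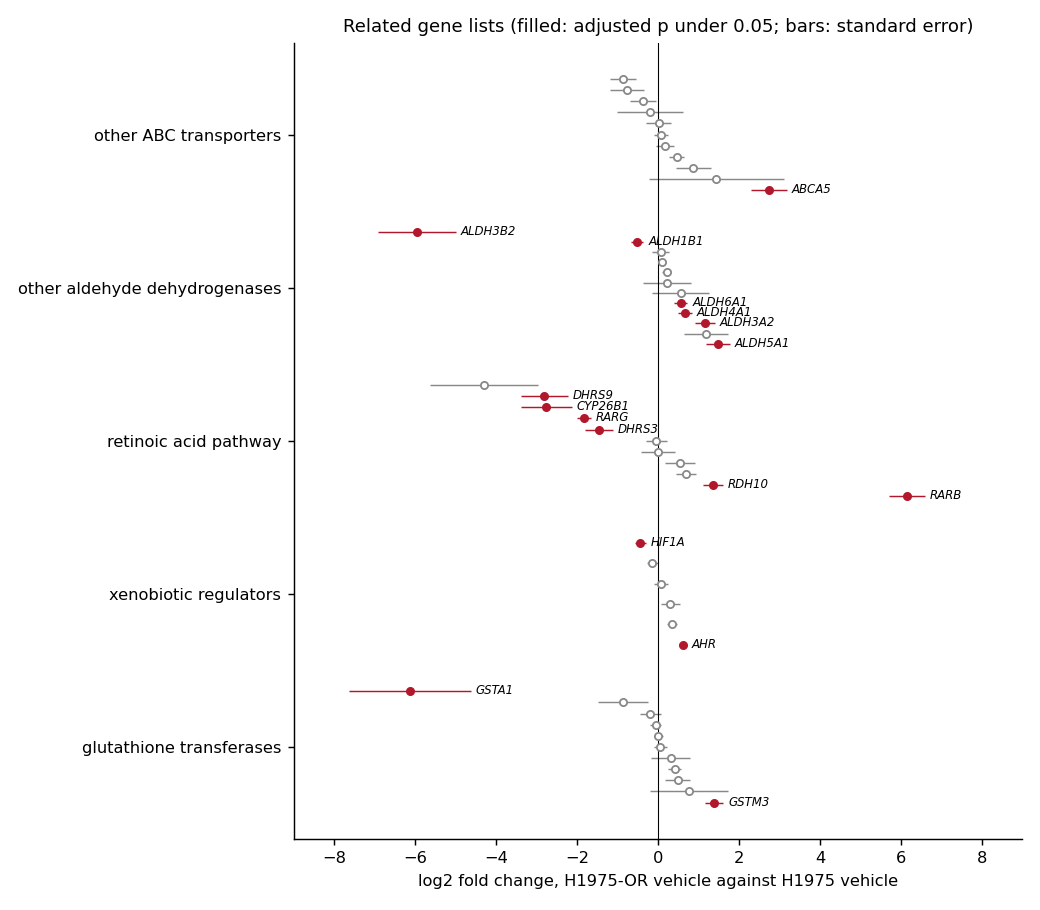
Log2 fold change (horizontal axis) with its standard error for each tested gene of the 5 related lists (vertical axis), H1975–OR against H1975, both with vehicle. Filled points with names are the 17 genes with an adjusted p under 0.05. The fitted values of ALDH3B2 and GSTA1 rest on libraries at or near 0 counts and are not fold sizes. Those of RARB (at most 4 counts per H1975 library), CYP26B1 and DHRS9 (at most 6 and 9 counts per vehicle-treated H1975–OR library) are uncertain in size.

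In the treated H1975–OR cells the lists gave almost no calls. By edgeR 0 of 51 list genes passed with 1,25(OH)2D3 (12 at an unadjusted p under 0.05), 0 of 48 with osimertinib (8 unadjusted), 0 of 48 with both agents against vehicle (10 unadjusted) and 0 of 48 with both against osimertinib (3 unadjusted). Of both agents against 1,25(OH)2D3, 1 of 48 passed (9 unadjusted), GSTM3, with a log2 fold change of 1.15 (SE 0.16, BH-adjusted p = 0.0368). The difference of the 1,25(OH)2D3 effects gave 0 of 48 (6 unadjusted). Over all 12513 genes tested 910 had an unadjusted p under 0.05 with 1,25(OH)2D3, and of 12503 genes 941 had one with osimertinib, 1558 with both agents against vehicle, 520 with both against osimertinib, 1452 with both against 1,25(OH)2D3, and 330 for the difference of the effects. By adjusted p the shares of all genes were the 0.152%, 0.048%, 0.496%, 0.096%, 0.256% and 0% given above, in the same order.

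Finally, the genes whose log2(CPM + 2) values followed 4 of the genes most closely over the 14 libraries other than 3a were read from 12818 genes. ABCG2 ran closest to SYTL5 (Pearson r = 0.961), RBBP8 (0.952) and CDCA7 (0.951). ALDH1A3 ran closest to CDC45 (0.965), COX17 (0.964) and EXO1 (0.959). For ABCC3 the leading values were lower, with ARF3 (0.751), C17orf62 (0.740) and CDC42BPG (0.733), and for ALDH2 they were CARS2 (0.810), KCNMB1 (0.798) and CERS5 (0.780). ABCG2 and ALDH1A3 correlated at 0.781 with each other, ABCG2 and ABCC4 at 0.717, and ALDH2 with each of the other 6 between −0.22 and 0.04. These correlations are descriptions without a test, from libraries that share replicate letters and 2 cell lines.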

How the data were processed

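RNA was sequenced as stranded total RNA libraries (paired-end reads, NextSeq500) from 15 samples, 3 for each of 5 groups named by the sample labels. The deposited values are estimated counts per gene, which the authors made with Kallisto against hg38 transcripts and summed to genes with tximport. They are not scaled for library size or length. The submitters' processing notes name CASAVA 1.8.2, STAR 2.5.2b, kallisto 0.43.0 and GRCh38. Which annotation and tximport settings were used is not given in the sources used here.

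Counts were rounded to whole numbers and fitted with edgeR 4.0.16 in R 4.3.3 on the whole table, with TMM scaling and filterByExpr (minimum count 10, minimum total 15). Groups were compared by the quasi-likelihood test with Benjamini-Hochberg adjustment over all genes tested, at a threshold of 0.05. Each SE was derived from that test, as the absolute log2 fold change divided by the square root of the F statistic. One fit of 8 libraries served H1975–OR against H1975 and 1,25(OH)2D3 against vehicle, and one of 11 H1975–OR libraries the other comparisons, both without Sample 3a. The same procedure was tested on simulated data with known large changes in well-expressed genes. The simulated libraries had no shared letter effect, so that test does not cover low genes or paired libraries. The depth per library limits low genes, and floors are 3 counts. The genes, the 5 lists and the alternatives were chosen with earlier results of these data known. Named list genes are those past the threshold, at most 6 per list and comparison, with a mean of at least 1 CPM in 1 group, and VDR was named outside this rule. Alternatives were RLE size factors, DESeq2 1.42.0, other filters on low counts, Sample 3a kept in, a replicate block, other sets of libraries, and each library left out in turn. Transcript lengths and positions came from GENCODE release 44, and correlations used a pseudocount of 2.

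The letters a, b and c were checked as a pairing. Deviations of same-letter libraries from their group means correlated at 0.31, 0.124 and 0.197 between vehicle and osimertinib and at 0.341, 0.118 and 0.178 between vehicle and both agents, so these letters pair the samples of those groups. Of the 18 same-letter correlations among H1975–OR groups 16 were over 0.1, and the other 2, both for letter b, were −0.014 between 1,25(OH)2D3 and osimertinib and 0.026 between 1,25(OH)2D3 and both agents. The letters did not pair H1975 with H1975–OR, where 12 correlations lay between −0.124 and 0.105.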

Additional observations from a re-analysis of the deposited data

Results flagged for a closer look

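Sample 3a, an H1975–OR library with 1,25(OH)2D3 that was left out of the fits above, held ABCC1 at 155.9 CPM, above each of the 6 vehicle libraries. It also held ABCB1 at 0.936 CPM, or 6 counts, above the 0 to 3 counts of the same 6 libraries. For ABCC1 it was also above all other 14 libraries, and for ABCB1 it was not, since Sample 5a reached 0.998 CPM.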

How the results depend on the processing

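The calls of ABCG2 and ALDH1A3 between H1975–OR and H1975 held in each of 16 alternatives, which comprised scaling, filters, DESeq2, Sample 3a kept in, the replicate block, other sets of libraries and each library left out. The number of the 7 tested genes that passed changed in 3 settings, by ABCC4 each time. With DESeq2 it was 1 for osimertinib against vehicle and 1 for both agents against vehicle, and with the replicate block it was 1 for both agents against vehicle, in place of 0. The replicate block changed no other call of the 7 genes. For ABCC1 with 1,25(OH)2D3, the log2 fold change of −0.33 was −0.21 with the replicate block and turned to 0.97 with Sample 3a kept in. Leaving out 1 library at a time gave −0.54 to 0.006, the positive value without vehicle Sample 2a. The cause was not tested. Over all genes tested, the calls without and with the replicate block were 6 and 35 for osimertinib against vehicle, 62 and 461 for both agents against vehicle, 12 and 33 for both against osimertinib, 32 and 183 for both against 1,25(OH)2D3, and 19 and 9 for 1,25(OH)2D3 against vehicle. DESeq2 gave 117, 364, 66, 329 and 124 in the same order, and 11 in place of 0 for the difference of the 1,25(OH)2D3 effects. The 19 and 9 calls for 1,25(OH)2D3 against vehicle came from the fit of 8 libraries, where the block also spans H1975. In the 11 H1975–OR libraries, a setting chosen after seeing the data, that comparison had 12 calls without the block and 48 with it. Depth limited ABCC2 and ABCC3, at a few CPM, and left ABCB1, ALDH1A1 and ALDH3A1 untested.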
